A study of Mus musculus with 22 samples.

Results

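The genes described here carry out fatty acid uptake and oxidation. They are 35 of the 54356 genes with a transcript in the deposited files, taken from a list by name and ordered by the step they serve, from the capillary wall to the electron carriers of the mitochondrion. RNA was measured in mouse embryo hearts at E13.5, in the middle of gestation, by bulk RNA sequencing. The comparison was between embryos with a conditional knockout of Prdm16 (cKO), a zinc finger transcription factor of compact ventricular muscle, and littermate controls, all of strain C57BL/6. There were 3 libraries of each genotype from whole hearts, 4 of each from isolated left ventricles and 4 of each from isolated right ventricles. The controls are titled WT and their genetic manipulation is given as Mock. The labels used here name neither the Cre driver nor the cells in which Prdm16 was deleted. They also do not tie libraries to animals, so ventricles of 1 heart could enter both sides of a left against right comparison, and p-values measure only the spread between these libraries.

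Fatty acids reach the heart bound to lipoproteins and albumin, are taken up and bound inside the cell, and are activated to acyl-CoA. The carnitine shuttle then moves the acyl group across the mitochondrial membranes, and each turn of beta-oxidation shortens the chain by an acetyl-CoA and passes electrons to the respiratory chain. The adult heart burns mainly fatty acids, whereas the fetal heart relies more on glucose and lactate, and the genes of this pathway rise toward birth under nuclear receptors such as PPAR-alpha and the estrogen-related receptors with their PGC-1 coactivators. For long chains, the steps that follow the acyl-CoA dehydrogenases are carried out by the mitochondrial trifunctional protein, whose subunits are encoded by Hadha and Hadhb. These are neighbours on mouse chromosome 5 that are transcribed away from each other. The RefSeq window of Hadhb on build GRCm38.p6, from 250 bases before its start to 50 after, is shown because it is also most of the promoter of Hadha. It lies at chr5:30155003-30155302 on the plus strand, and capitals mark the 228 bases that are also in the window of Hadha.
Hadhb: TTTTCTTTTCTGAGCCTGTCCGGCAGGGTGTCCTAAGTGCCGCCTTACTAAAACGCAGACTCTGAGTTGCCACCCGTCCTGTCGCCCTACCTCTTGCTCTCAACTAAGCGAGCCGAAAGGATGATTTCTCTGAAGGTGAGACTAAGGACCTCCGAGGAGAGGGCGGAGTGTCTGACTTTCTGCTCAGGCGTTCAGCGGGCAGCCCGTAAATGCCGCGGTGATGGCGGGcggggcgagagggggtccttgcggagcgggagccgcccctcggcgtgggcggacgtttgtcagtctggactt

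The libraries held 38590751 to 62004017 assigned reads in the whole hearts and 14508722 to 22830716 in the ventricles, and the lowest estimated count of any member in any library was 125. Values per library are given as scaled CPM, a gene's counts relative to the TMM-scaled size of its library. The scaling was done within the whole hearts and within the ventricles, so levels are not compared between these sets. Prdm16 lay below every control of its tissue in each cKO library, at 19 to 22.3 against 37.4 to 45.3 scaled CPM in the whole heart, 21.6 to 23.4 against 45.4 to 56.2 in the left ventricle and 22.2 to 25.8 against 37.5 to 44.3 in the right. Cardiomyocyte markers were abundant in all groups, with a summed level of 15230 to 24670 TPM (transcript abundance per length and library). The library labelled right ventricle control 2 lay below its fellow controls for most members. It also stood apart for markers of valve and fibroblast mesenchyme, with Postn at 576 against 104 to 119 scaled CPM in the other right ventricle controls, Meox1 at 53.1 against 3.27 to 4.14 and Pdgfra at 142 against 41.5 to 50.1. Their part in its low member values was not tested. Whole heart control 1 had the fewest assigned reads of the whole hearts, 38590751. It had reads for 19478 genes, against 25499 to 27146 in the other whole hearts and 22826 to 24487 in the ventricles. The part of this in the whole heart results was not tested.

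In the left ventricle 28 of the 35 members fell in the cKO and 0 rose (edgeR quasi-likelihood F test, Benjamini-Hochberg adjusted p under 0.05 over all 16448 genes tested), where 13.4% of all genes were called lower and 12.3% higher. The median log2 fold change of the members was -0.44 and that of all genes -0.00, and each of the 35 had a negative value. In the right ventricle 16 fell and 0 rose, beside 4.19% of all genes called lower and 6.12% higher, with a median of -0.20. In the whole heart 15 of the 35 fell and 0 rose, beside 2.07% of the 19160 genes called lower and 1.96% higher, with a median of -0.28. None was higher at an unadjusted p under 0.05 in any of the 3 tissues by edgeR, DESeq2 or limma. The sum of the 35 members was 3340 to 3473 TPM in the left ventricle controls and 2481 to 2671 in the cKO, 3167 to 3686 and 2849 to 3080 in the right ventricle, and 3314 to 3604 and 2794 to 3040 in the whole heart, with no overlap between genotypes in any tissue. The share of reads from genes of the mitochondrial genome also differed without overlap in both ventricles, at 5.34 to 5.91% in the left ventricle cKO against 6.3 to 6.88% in controls and 5.65 to 6.46% against 6.65 to 7.38% in the right, and overlapped in the whole heart (5.13 to 5.74% and 4.73 to 5.95%). Its part in the result was not tested. In bulk RNA, fewer cells of a type and less RNA per cell cannot be told apart.

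The 12 members that fell in all 3 tissues were Fabp3, Cpt1b, Acsl3, Acadvl, Acadm, Hadha, Hadhb, Echs1, Hadh, Acaa2, Eci1 and Pdk4. The 16 that fell in the right ventricle and the 15 that fell in the whole heart had also fallen in the left ventricle. With all libraries 7 were called in no tissue, namely Lpl, Slc27a1, Slc25a20, Acsl4, Acaa1a, Decr1 and Mlycd. In scaled CPM the cKO libraries lay wholly below the controls for 28 members in the left ventricle, 27 in the whole heart and 9 in the right ventricle, while 15%, 12.9% and 5.14% of all genes tested did so. In TPM these were 26, 18 and 11 members, beside 6.94%, 6.45% and 5.13% of all genes tested. The counts of calls for the whole heart and the right ventricle depended on single libraries. The whole heart count was 5 without any of cKO 1, 2 or 3, 7 without control 3, and 18 without control 1. The right ventricle count was 11 without control 3, and 26 without control 2, beside 7.12% of all genes then called lower and 7.41% higher. The 10 members that gained a call without control 2 were Cd36, Fabp4, Cpt2, Acsl4, Acot13, Acadl, Acads, Acat1, Etfa and Etfb, with log2 fold changes from -0.12 (Cpt2, adjusted p = 0.0313) to -0.41 (Cd36, adjusted p = 0.0227) for all but Fabp4, whose value was lower still (adjusted p = 0.0212). Of the 15 calls in the whole heart, 4 (Acadm, Acads, Acaa2 and Eci1) were made in each of the 6 fits without 1 library, and of the 16 in the right ventricle 11 were made in each of 16, all but Fabp3, Cpt1a, Cpt1b, Hadha and Hadh. In the whole heart DESeq2 called 22 members lower, edgeR on length-scaled counts 3 and limma on TPM 1. Leaving out any of the 16 ventricle libraries left 26 to 28 calls in the left ventricle. Of its calls, 2 were lost in some of these fits. Fabp4 was not called without cKO 2, 3 or 4 or control 3 or 4, and Eci2 without cKO 2 or 3 or control 1.

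**Figure D1:**
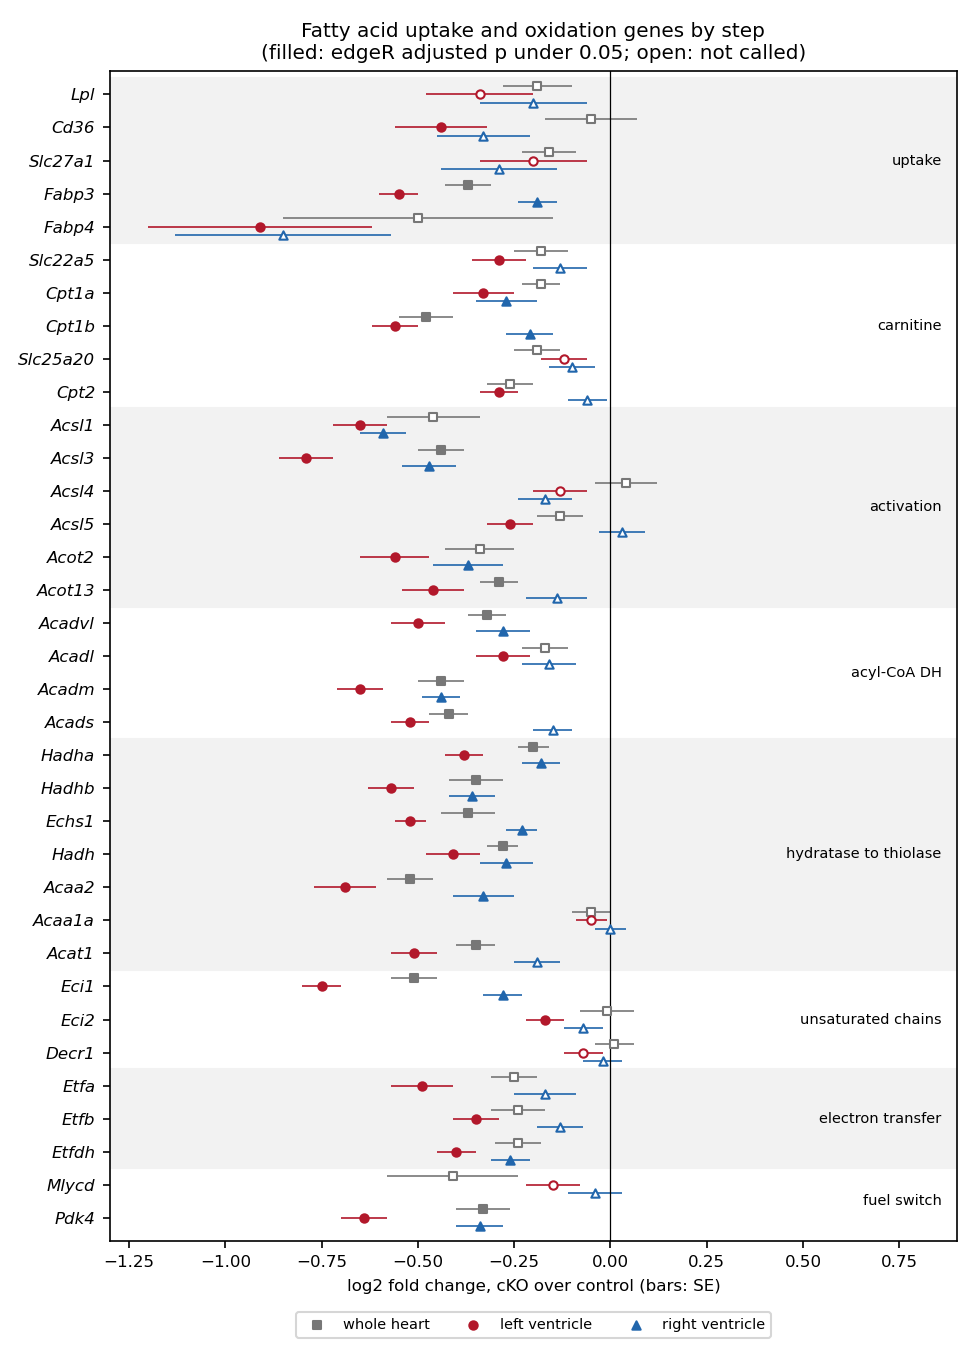
Log2 fold change of cKO over control (x axis, bars are the SE) for the 35 members in the order of the steps (y axis), in the whole heart (grey squares), the left ventricle (red circles) and the right ventricle (blue triangles), filled where the adjusted p is under 0.05. The left ventricle has 28 filled points and all its points are left of 0.

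**Figure D2:**
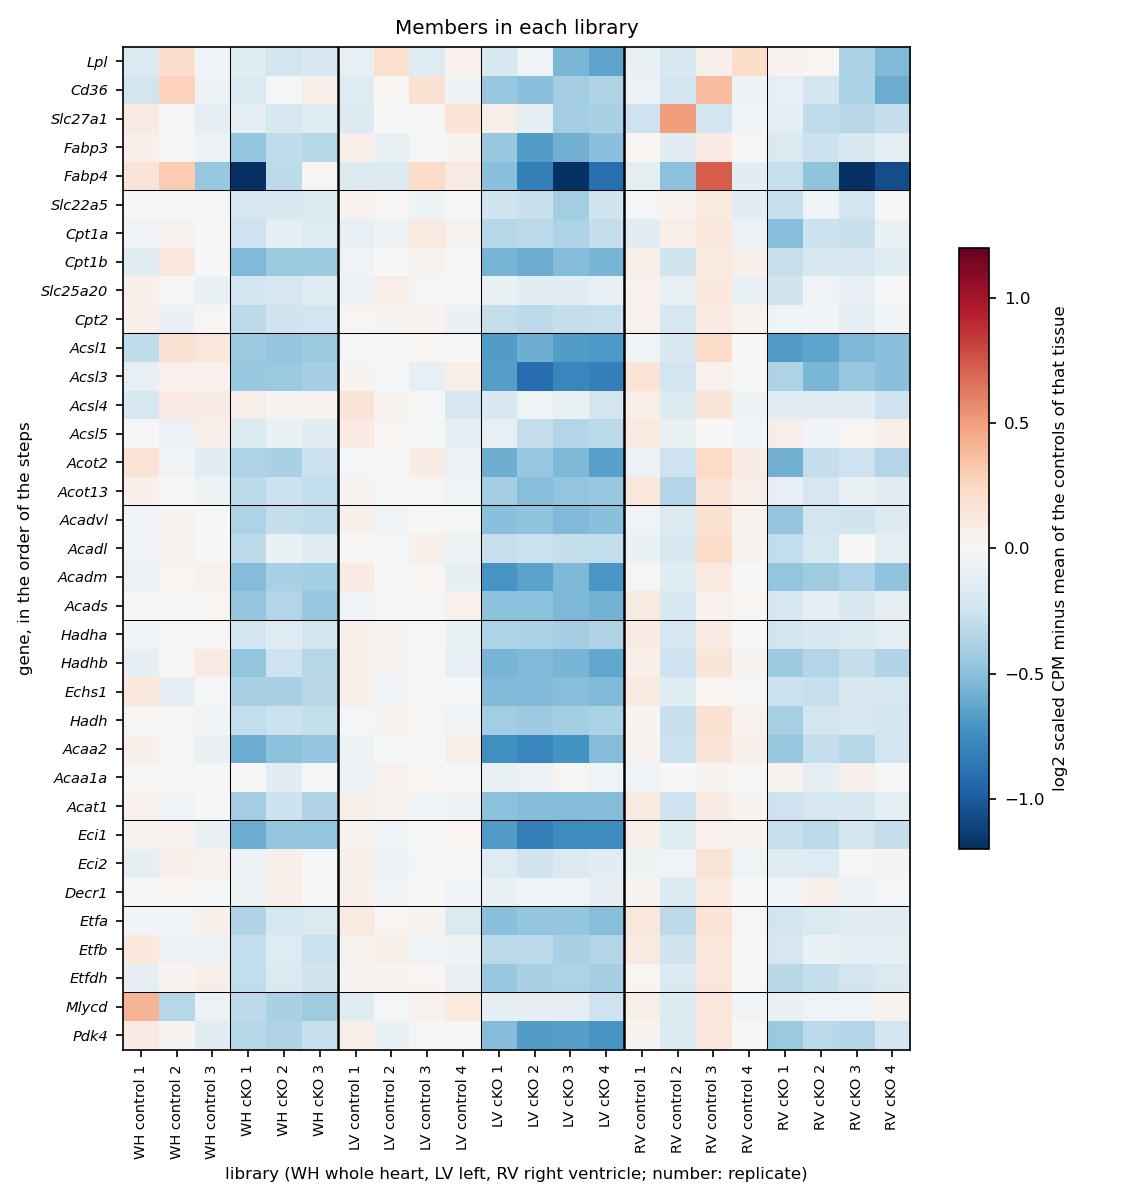
Each of the 22 libraries (x axis) and 35 members (y axis), coloured by the log2 scaled CPM minus the mean of the controls of the same tissue. The 4 left ventricle cKO libraries are blue for most members, while right ventricle control 2 is bluer than the other controls of its group.

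The members differed widely in level. Per kilobase of the transcript with the most reads, the left ventricle controls held a mean of 373 scaled CPM of Fabp3, 195 of Acadl, 144 of Etfb, 131 of Hadhb and 130 of Hadha, the 5 highest. The lowest were Slc22a5 at 5.56, Slc27a1 at 8.07, Acsl4 at 8.63 and Mlycd at 8.67. Fabp3 was followed by enzymes of the mitochondrial spiral and an electron carrier, and the lowest included a membrane transporter and acyl-CoA synthetases. TPM was not used for this order because 47.3% of the TPM of Hadha and 56.1% of that of Acat1 in the left ventricle controls lay in transcripts under 600 bases.

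Among the 5 genes of uptake, 3 fell in the left ventricle and 1 each in the right ventricle and the whole heart. Fabp3, the cytosolic fatty acid-binding protein of heart muscle (chr4:130308595-130315463, plus strand, GRCm38), was the one that fell in every tissue. In the left ventricle it was at 324, 289, 301 and 313 scaled CPM in the controls and 223, 192, 205 and 217 in the cKO. Right ventricle libraries were at 285, 254, 299 and 281 and at 247, 234, 246 and 257. The left ventricle groups were far apart, and those of the right ventricle met at control 2, the lowest control, and cKO 4, the highest cKO library. The log2 fold change was -0.55 (SE 0.05, edgeR adjusted p = 1.69e-06) in left ventricles and -0.19 (SE 0.05, adjusted p = 0.0391) in the right, where the call was lost without right ventricle cKO 1, 2 or 3, right ventricle control 1, 3 or 4, or left ventricle control 3. For the whole heart it was -0.37 (SE 0.06, adjusted p = 0.0157), a call lost without any of cKO 1, 2 or 3. Fabp3 shares 35.2% of its 31-base words with Fabp3-ps1, which was at most 0.0551 scaled CPM in any group mean.

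Among the other uptake genes, Cd36 is prominent in capillary endothelium as well as in muscle. Cd36, the membrane receptor that carries long-chain fatty acids into cells, was at 78.5, 88.7, 99.1 and 83.7 scaled CPM in left ventricle controls and 63.5, 61.8, 65.2 and 68 in the cKO. These groups did not overlap, and it fell by 0.44 (SE 0.12, edgeR adjusted p = 0.01) on the log2 scale. The call was lost on length-scaled counts (adjusted p = 0.0946) and by limma on TPM (0.159). It ran in the right ventricle from 79.6 to 121 in controls and from 62.1 to 87.3 in the cKO, with an adjusted p of 0.0855 (0.0227 without control 2), and in the whole heart the groups overlapped (log2 fold change -0.05, SE 0.12). Fabp4, the binding protein of adipocytes and capillary endothelium, was at 21.3, 21.1, 28 and 25.7 scaled CPM in left ventricle controls and 16.9, 13.51, 8.25 and 12.8 in the cKO. All 4 cKO libraries were lower and they were spread over a wider range, so its log2 fold change of -0.91 had an SE of 0.29 (edgeR adjusted p = 0.0271). Right ventricle levels ran from 17.2 to 40.0 in controls and from 7.36 to 20.0 in the cKO (log2 fold change -0.85, SE 0.28, adjusted p = 0.0672, and 0.0212 without control 2).

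Lpl encodes the lipase that frees fatty acids from lipoproteins, and Slc27a1 an acyl-CoA synthetase of the transport protein family. Neither was called in any tissue. Lpl ran from 194 to 247 scaled CPM in left ventricle controls and from 139 to 210.3 in the cKO (log2 fold change -0.34, SE 0.14, edgeR adjusted p = 0.0968), and the groups overlapped. Slc27a1 had log2 fold changes of -0.20 (SE 0.14), -0.29 (SE 0.15) and -0.16 (SE 0.07) in the left ventricle, right ventricle and whole heart. Of the cell type markers measured beside these genes, 7 of 9 endothelial and endocardial genes were higher in the left ventricle cKO, beside 12.3% of all genes. Tek was at 0.36, Pecam1 at 0.21 and Npr3 at 0.52 on the log2 scale. The summed level of the 9 was 735 to 813 TPM against 588 to 638 in controls. The 4 adipocyte markers were each under 1 TPM on average in every group and were not tested.

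Of the 5 genes of carnitine supply and the carnitine shuttle, 4 fell in the left ventricle, 2 in the right and 1 in the whole heart. Cpt1b, the carnitine palmitoyltransferase of the outer membrane in muscle and the main point of control of the pathway (chr15:89416405-89425863, minus strand), moved most in the left ventricle and the whole heart. It was at 251, 258, 266 and 257 scaled CPM in left ventricle controls and 175, 171, 179.7 and 175 in the cKO. The right ventricle controls were at 282, 227, 289.5 and 281 and the cKO at 222, 235, 234 and 242. The left ventricle groups were tight and far apart, and in the right ventricle 3 controls stood above all cKO libraries while control 2 lay among them. Cpt1b fell by 0.56 (SE 0.06, edgeR adjusted p = 2.60e-06) on the log2 scale in the left ventricle, by 0.48 (SE 0.07, adjusted p = 0.01) in the whole heart (lost without cKO 1, 2 or 3 or control 3) and by 0.21 (SE 0.06, adjusted p = 0.0272) in the right ventricle, the last of which was lost without any of 6 right ventricle libraries in turn (cKO 1, 2 or 3, or control 1, 3 or 4). A read-through gene, Gm44502, holds 93.7% of the 31-base words of the Cpt1b transcript, so the split of reads between them is uncertain. Summed with it, the log2 ratio of the means in the left ventricle was -0.52 in place of -0.56.

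Cpt1a, the form of the same enzyme that prevails in liver, fell by 0.33 (SE 0.08, edgeR adjusted p = 0.00369) in left ventricles and by 0.27 (SE 0.08, adjusted p = 0.0268) in the right, where the call was lost without cKO 1, 2 or 3 or control 3. It ran from 75.5 to 86.8 scaled CPM in left ventricle controls and from 62.6 to 66.2 in the cKO, without overlap. In TPM the ratio of Cpt1b to Cpt1a was 4.91 ± 0.107 (SD, n = 4) in left ventricle controls and 5.01 ± 0.286 (SD, n = 4) in the cKO, a difference smaller than the SD in the cKO. On counts, however, Cpt1b fell further than Cpt1a there, with a log2 fold change of -0.56, so the ratio depended on the unit. In the whole heart the TPM ratio was 3.081 to 4.078 in controls and 2.741 to 3.049 in the cKO, without overlap. In the right ventricle the genotypes overlapped. Cpt2, which returns the acyl group to CoA inside the mitochondrion, fell in the left ventricle by 0.29 (SE 0.05, edgeR adjusted p = 0.000528). Slc22a5, the carnitine transporter of the cell membrane, fell there by the same 0.29 (SE 0.07, edgeR adjusted p = 0.00614), and shares 36.5% of its 31-base words with Slc22a21. The summed pair gave a log2 ratio of the means of -0.22 in the left ventricle in place of -0.29. Slc25a20, the carnitine-acylcarnitine exchanger of the inner membrane, ran from 43 to 47.7 scaled CPM in left ventricle controls and from 41.1 to 42.4 in the cKO. These ranges did not overlap, yet the log2 fold change of -0.12 (SE 0.06, adjusted p = 0.151) did not pass the test. It was called in no tissue. Cpt2 was not called in the right ventricle (-0.06, SE 0.05), where it was called without control 2, or in the whole heart (-0.26, SE 0.06, adjusted p = 0.0513).

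Of the 6 genes of activation and its reversal, 5 fell in the left ventricle, 3 in the right and 2 in the whole heart. Long-chain acyl-CoA synthetases make acyl-CoA, and the thioesterases Acot2 and Acot13 cleave it again inside the mitochondrion. Acsl3, a synthetase of endoplasmic reticulum and lipid droplets (chr1:78657825-78707743, plus strand), was at 120.0, 115, 109.6 and 124 scaled CPM in left ventricle controls and 74.2, 62.2, 68 and 66.2 in the cKO. The right ventricle controls were at 98.3, 74.9, 91.2 and 88.1 and the cKO at 67.7, 59.9, 64.2 and 62. The genotypes did not overlap in either ventricle, and the cKO levels of both ventricles lay in nearly the same range although the left started higher. It fell by 0.79 (SE 0.07, edgeR adjusted p = 6.18e-07) in left ventricles, 0.47 (SE 0.07, adjusted p = 0.000355) in the right and 0.44 (SE 0.06, adjusted p = 0.00686) in the whole heart, where it was not called without cKO 2.

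Acsl1, the main synthetase of adult heart muscle, fell by nearly the same amount in both ventricles. It was at 42.7, 43.4, 44 and 43.3 scaled CPM in left ventricle controls and 27.3, 28.8, 27.2 and 26.8 in the cKO, and at 50.8, 45.8, 60.6 and 51.7 and 32.5, 33.5, 35.9 and 36.7 in the right. The groups were apart in both ventricles. Its log2 fold change was -0.65 (SE 0.07, edgeR adjusted p = 2.15e-06) in the left and -0.59 (SE 0.06, adjusted p = 1.26e-05) in the right, and the difference between them was -0.06 (SE 0.09). In the whole heart it was -0.46 (SE 0.12, adjusted p = 0.0805), with control 1 at 34.8 against 48.9 and 46.9 in the other controls and 31.3 to 31.9 in the cKO. Without control 1 the value was -0.60 with an adjusted p of 0.000509.

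Acsl5 fell in the left ventricle by 0.26 (SE 0.06, edgeR adjusted p = 0.00294), where the groups overlapped, and had a log2 fold change of 0.03 (SE 0.06) in the right. Acsl4, which prefers arachidonic acid, was called in no tissue with all libraries, with values of -0.13 (SE 0.07), -0.17 (SE 0.07) and 0.04 (SE 0.08) in the left ventricle, right ventricle and whole heart. Without right ventricle control 2 it was called there (-0.22, adjusted p = 0.0389), as was Acot13 (-0.25, adjusted p = 0.000443). Acot2 fell by 0.56 (SE 0.09) in the left ventricle and 0.37 (SE 0.09) in the right, and Acot13 by 0.46 (SE 0.08) in the left ventricle and 0.29 (SE 0.05) in the whole heart (lost in 5 of 6 fits without 1 library). Acot2 shares 29.9% of its 31-base words with Acot1, and the summed pair gave a log2 ratio of -0.48 in the left ventricle.

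The acyl-CoA dehydrogenases open each turn of beta-oxidation and are graded by chain length, from very long (Acadvl) through long (Acadl) and medium (Acadm) to short (Acads). All 4 fell in the left ventricle, 2 in the right and 3 in the whole heart. Acadm (chr3:153922357-153944632, minus strand) was at 175, 162, 165 and 151 scaled CPM in left ventricle controls and 100.1, 105, 112 and 101 in the cKO. It was at 197, 178, 212 and 195 in right ventricle controls and 141, 145, 151 and 139.8 in the cKO. In the whole heart the controls were at 159.8, 170.4 and 174 and the cKO at 117, 128 and 127. No tissue showed an overlap. The log2 fold changes were -0.65 (SE 0.06, edgeR adjusted p = 3.24e-07), -0.44 (SE 0.05, adjusted p = 4.85e-05) and -0.44 (SE 0.06, adjusted p = 0.0068) in the same order, and Acadm was called in every fit that left out 1 library.

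Acads was at 94.5, 98.7, 96.1 and 101 scaled CPM in left ventricle controls and 69.4, 69.4, 67.4 and 66 in the cKO. The right ventricle controls were at 109.6, 89.2, 105 and 103 and the cKO at 88.3, 94.4, 88.9 and 94.3. The left ventricle groups were apart, and in the right only control 2 lay among the cKO libraries. Its log2 fold change was -0.52 (SE 0.05, edgeR adjusted p = 1.84e-06) in left ventricles and -0.15 (SE 0.05, adjusted p = 0.0697) in the right, and -0.21 with an adjusted p of 0.001 in the right without control 2. Acadvl fell by 0.50 (SE 0.07), 0.28 (SE 0.07) and 0.32 (SE 0.05) in the left ventricle, right ventricle and whole heart. As the counting strand is not given in the sources used here and 32.7% of its 31-base words lie on the opposite strand of a Dvl2 transcript, some of its reads are uncertain. Acadl, the most abundant dehydrogenase per kilobase, moved least of the 4 in the left ventricle and whole heart. Its log2 fold changes were -0.28 (SE 0.07, adjusted p = 0.00725) in left ventricles, -0.16 (SE 0.07) in the right and -0.17 (SE 0.06) in the whole heart. Without control 2 it was called in the right, at -0.22 (adjusted p = 0.0319).

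The later steps of the turn hydrate the acyl chain, oxidise it again and release acetyl-CoA. Of these 7 genes, 6 fell in the left ventricle, 5 in the right and 6 in the whole heart. Hadhb was at 279.5, 275, 269 and 250.4 scaled CPM in left ventricle controls and 182, 186, 182 and 174 in the cKO, and Hadha at 345, 339, 328 and 314 and 256, 256, 249.9 and 258. Neither overlapped between genotypes. Hadhb fell by 0.57 (SE 0.06, edgeR adjusted p = 6.12e-06) and Hadha by 0.38 (SE 0.05, adjusted p = 6.70e-05), so the subunits of the trifunctional protein, which share the window printed above, moved in one direction but by different amounts; the difference between them was not tested. The falls in the right ventricle were 0.36 (SE 0.06) and 0.18 (SE 0.05, adjusted p = 0.0486). Hadhb shares 64.8% of its 31-base words with Gm13910, which was at most 0.0553 scaled CPM in any group mean. In the right ventricle Hadha lost the call in 14 of the 16 fits that left out 1 library.

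For shorter chains the same reactions use separate enzymes. Echs1, the short-chain hydratase, was at 127, 119, 122 and 119.8 scaled CPM in left ventricle controls and at 84.4, 84.4, 85.4 and 84.6 in the cKO. The cKO libraries were almost identical and all below the controls, and Echs1 fell by 0.52 (SE 0.04, edgeR adjusted p = 3.02e-07) there and by 0.23 (SE 0.04, adjusted p = 0.00234) in the right ventricle. Hadh, the hydroxyacyl-CoA dehydrogenase of medium and short chains, fell by 0.41 (SE 0.07) in the left ventricle, 0.27 (SE 0.07) in the right, where the call was lost without cKO 1 or control 3, and 0.28 (SE 0.04) in the whole heart. Acaa2, the thiolase of the mitochondrial matrix, was at 164, 169, 170.0 and 179 in left ventricle controls and 102, 99.4, 103 and 119 in the cKO, without overlap. It fell by 0.69 (SE 0.08, adjusted p = 5.20e-06) in left ventricles, 0.33 (SE 0.08) in the right and 0.52 (SE 0.06) in the whole heart. Acat1, the thiolase of acetoacetyl-CoA, fell by 0.51 (SE 0.06) in the left ventricle and 0.35 (SE 0.05) in the whole heart. Its value in the right ventricle was -0.19 (SE 0.06, adjusted p = 0.0603), and -0.27 with an adjusted p of 0.000176 without control 2.

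Acaa1a, the thiolase of the peroxisome, stood against these mitochondrial enzymes. It was at 62, 67.3, 66.1 and 64.8 scaled CPM in left ventricle controls and 61, 61.9, 65.5 and 62.6 in the cKO, and at 59.1, 60.8, 62.5 and 61.7 and 62.9, 56.5, 63.8 and 61.2 in the right ventricle. The groups overlapped in both. Its log2 fold change was -0.05 (SE 0.04, edgeR adjusted p = 0.398) in left ventricles, 0.00 (SE 0.04) in the right and -0.05 (SE 0.05) in the whole heart. It shares 43.8% of its 31-base words with Acaa1b, which was at most 0.307 scaled CPM in any group mean.

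**Figure D3:**
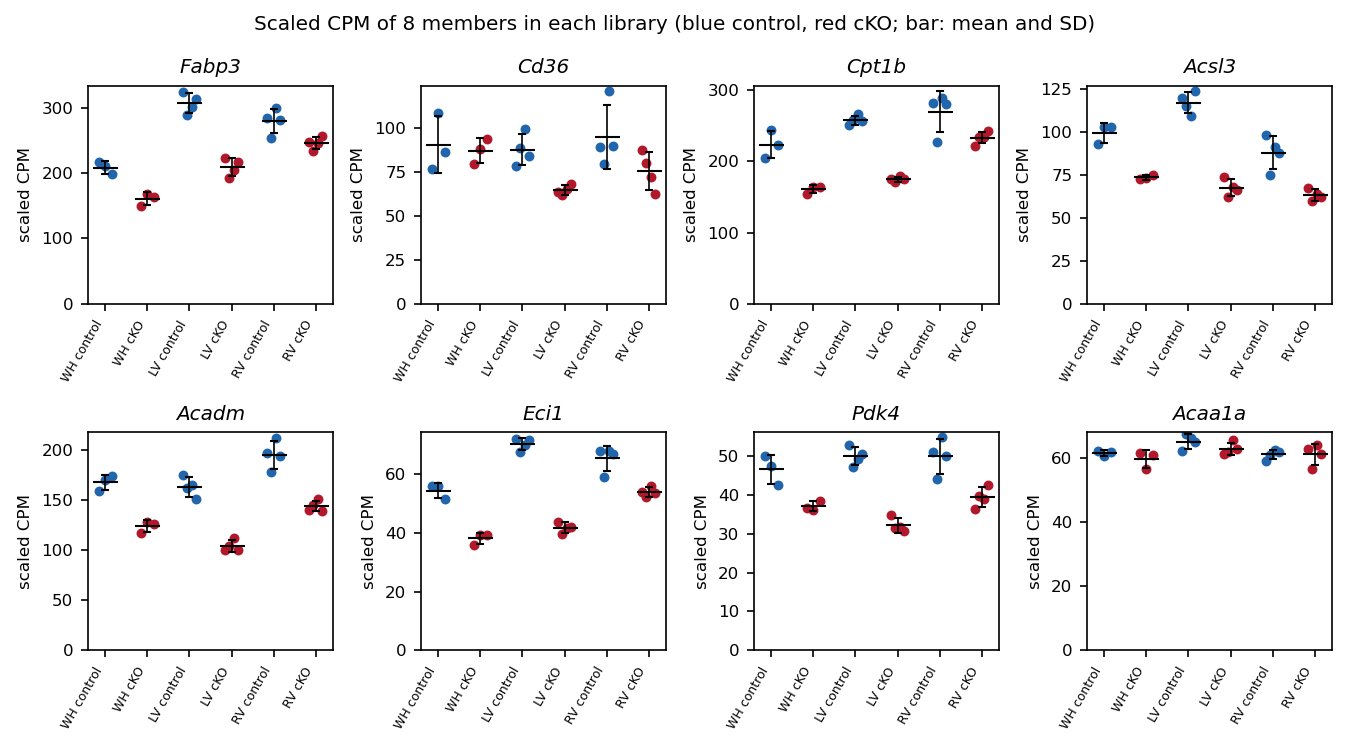
Scaled CPM (y axis, from 0) of 8 members in each library (points, controls blue and cKO red), with the mean and SD, for the 6 groups (x axis, WH whole heart, LV and RV left and right ventricle). Fabp3, Cpt1b, Acadm and Eci1 are apart between genotypes in the left ventricle, and Acaa1a overlaps in every tissue.

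The auxiliary enzymes that deal with double bonds split. Eci1, the delta-3,2-enoyl-CoA isomerase of the mitochondrion (chr17:24426641-24439348, plus strand), was at 72.2, 67.7, 70.0 and 71.8 scaled CPM in left ventricle controls and 43.9, 39.6, 41.8 and 42.1 in the cKO. It was at 68, 59.2, 67.9 and 67.1 in right ventricle controls and 53.9, 52.1, 56 and 53.6 in the cKO. Neither ventricle showed an overlap, and the cKO levels of the left ventricle lay below those of the right while the ranges of the controls met. Eci1 fell by 0.75 (SE 0.05, edgeR adjusted p = 1.11e-08) in left ventricles, 0.28 (SE 0.05, adjusted p = 0.00073) in the right and 0.51 (SE 0.06, adjusted p = 0.00501) in the whole heart. Eci2, the isomerase found in peroxisomes as well as mitochondria, fell by 0.17 (SE 0.05, adjusted p = 0.0242) in the left ventricle, and had values of -0.07 (SE 0.05) and -0.01 (SE 0.07) in the right ventricle and whole heart. The difference between the ventricles, -0.10 (SE 0.08), did not pass the test, and the left ventricle call was lost in 3 of the 16 fits without 1 library. Decr1, the dienoyl-CoA reductase, was called in no tissue (-0.07, -0.02 and 0.01, each with an SE of 0.05).

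The electron transfer flavoprotein, made of the products of Etfa and Etfb, takes electrons from the acyl-CoA dehydrogenases, and its oxidoreductase, encoded by Etfdh, hands them to ubiquinone. All 3 genes fell in the left ventricle, by 0.49 (SE 0.08, edgeR adjusted p = 0.000226), 0.35 (SE 0.06, adjusted p = 0.000627) and 0.40 (SE 0.05, adjusted p = 3.50e-05). Etfdh fell in the right ventricle by 0.26 (SE 0.05, adjusted p = 0.00487). Etfa and Etfb were not called there with all libraries, and were called without control 2, at -0.27 (adjusted p = 0.00241) and -0.21 (adjusted p = 0.00293). None was called in the whole heart by edgeR, with adjusted p of 0.0764, 0.118 and 0.0806 and values of -0.25, -0.24 and -0.24. Etfa was at 168, 159, 160.0 and 139 scaled CPM in left ventricle controls and 110.0, 113, 113 and 109.5 in the cKO. Etfdh was at 157, 157, 156 and 144 and at 112, 117, 119 and 115. The cKO libraries lay below all controls for both, with control 4 the lowest control. Etfb shares 68% of its 31-base words with Gm45233, which was at most 0.334 scaled CPM in any group mean.

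The promoter windows of Etfb and Etfdh are shown because they match a loose form of the element of NRF1, a factor of nuclear genes for mitochondrial proteins. This form was searched as GCGCNNGCGC on both strands, with any base at N. Capitals mark its matches, and the windows again run from 250 bases before to 50 after the RefSeq start on GRCm38.p6. That of Etfb lies at chr7:43443822-43444121 on the plus strand and that of Etfdh at chr3:79628718-79629017 on the minus strand, and the latter has 2 matches.
Etfb: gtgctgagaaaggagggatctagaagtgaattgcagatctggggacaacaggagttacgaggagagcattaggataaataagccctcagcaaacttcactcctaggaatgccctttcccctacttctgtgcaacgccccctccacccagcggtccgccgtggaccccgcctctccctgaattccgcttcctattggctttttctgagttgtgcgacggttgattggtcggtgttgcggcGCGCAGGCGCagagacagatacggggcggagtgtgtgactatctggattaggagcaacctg
Etfdh: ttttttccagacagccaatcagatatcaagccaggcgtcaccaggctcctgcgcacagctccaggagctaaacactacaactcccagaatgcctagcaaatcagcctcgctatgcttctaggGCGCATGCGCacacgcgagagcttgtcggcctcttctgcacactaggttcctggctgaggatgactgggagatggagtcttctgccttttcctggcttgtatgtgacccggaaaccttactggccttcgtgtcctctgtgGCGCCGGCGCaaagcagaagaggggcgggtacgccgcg

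Of the 28 members matched by symbol to this table, 3 held this loose form of the NRF1 element (Etfb, Etfdh and Slc22a5), while 7% of the 27025 genes in the table did. The estrogen-related receptor element TCAAGGTCA was in 0 of the 28 (0.466% of all genes), and in 0 with any second base, TNAAGGTCA (1.43%), which includes it. The direct repeat AGGTCANAGGTCA of nuclear receptor pairs was also in 0 (0.0481%). A match is a stretch of letters and not a bound site, and the windows do not reach beyond the start region.

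Among the genes that set the choice of fuel, Pdk4, the kinase that turns pyruvate dehydrogenase off, fell in all 3 tissues. It was at 53, 47.4, 49.4 and 50.6 scaled CPM in left ventricle controls and 35, 31.5, 31.7 and 30.7 in the cKO, and at 51.1, 44.1, 54.9 and 50 and 36.5, 39.8, 39.1 and 42.6 in the right ventricle. The genotypes did not overlap in either. Pdk4 fell by 0.64 (SE 0.06, edgeR adjusted p = 2.15e-06) in left ventricles, 0.34 (SE 0.06, adjusted p = 0.00196) in the right and 0.33 (SE 0.07, adjusted p = 0.0446) in the whole heart, where the call was lost without any of cKO 1, 2 or 3 or control 2. Mlycd encodes the decarboxylase that removes malonyl-CoA, the inhibitor of the CPT enzymes of the outer membrane. It ran from 16.6 to 19.9 scaled CPM in left ventricle controls and from 15.5 to 17.1 in the cKO, with overlap (log2 fold change -0.15, SE 0.07, adjusted p = 0.124), and was not called elsewhere.

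The cKO effect was set against itself between the ventricles in 1 model of all 16 ventricle libraries. For 33 of the 35 members the log2 fold change was lower in the left ventricle than in the right, all but Slc27a1 and Acsl4, and the median difference was -0.20. The difference passed the test for 5 members, all with the larger fall in the left, beside 0.973% of all genes in that direction and 0.462% in the other, where 0 members were called. At an unadjusted p under 0.05 edgeR gave 18 and 0 members, and the shares of all genes at that threshold were not counted. The 5 were Eci1 (-0.47, SE 0.07, edgeR adjusted p = 0.00176), Acads (-0.37, SE 0.07, adjusted p = 0.0181), Fabp3 (-0.37, SE 0.08, adjusted p = 0.0252), Echs1 (-0.29, SE 0.06, adjusted p = 0.0271) and Cpt1b (-0.35, SE 0.08, adjusted p = 0.0425). Eci1 and Acads were called in each of the 16 fits that left out 1 library, and Fabp3, Echs1 and Cpt1b in 11, 8 and 5 of them. A block was also fitted that joined cKO and control libraries of the same number within a ventricle. With it, in edgeR, Acads (adjusted p = 0.0707) and Cpt1b (0.0702) lost the call and Acsl5 (0.0407) gained it. A block joining left and right ventricles of the same number was not fitted for the difference. DESeq2 called 8 members, edgeR on length-scaled counts 1, and limma on TPM 0 (7 at an unadjusted p under 0.05). Acsl3 and Acaa2 had differences of similar size, -0.32 (SE 0.10) and -0.36 (SE 0.11), with adjusted p of 0.143 and 0.118.

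**Figure D4:**
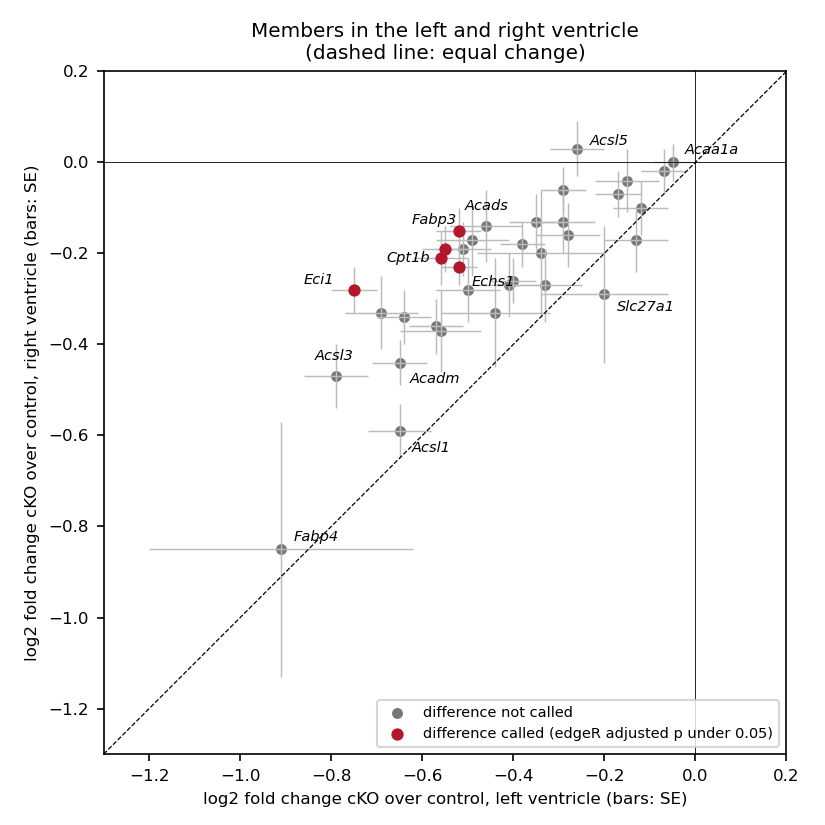
Log2 fold change of cKO over control in the left ventricle (x axis) against the right ventricle (y axis) for the 35 members, with SE bars and a dashed line of equal change. The 5 members whose difference was called are red, and 33 members lie above the line, where the left ventricle fell further.

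In the control hearts, 11 members were lower in the left ventricle than in the right and 2 were higher, beside 12% and 9.02% of all genes. The lower ones included Acadm (-0.26, SE 0.05, edgeR adjusted p = 0.00288), Acsl1 (-0.27, SE 0.06, adjusted p = 0.00643) and Lpl (-0.45, SE 0.14, adjusted p = 0.0347), and the higher ones were Acsl3 (0.41, SE 0.07, adjusted p = 0.000674) and Slc22a5 (0.26, SE 0.07, adjusted p = 0.0158). This count moved with single libraries and with scaling. It was 18 without right ventricle control 2, 2 without left ventricle control 4 or right ventricle control 3, 4 without right ventricle control 4, and 4 when scaled by library totals. Acadm, Acsl1 and Acsl3 alone were called in each of the 16 fits that left out 1 library. In the cKO hearts, 26 members were lower in the left ventricle and 1, Slc27a1, was higher (0.39, SE 0.15, adjusted p = 0.0494), beside 18.3% and 14.5% of all genes. The call for Slc27a1 was lost in 10 of the 16 such fits. For Acsl3, which was higher in the left of the controls, the left and right ventricles of the cKO had overlapping ranges, and it was not called there.

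The other genes of fatty acid handling that were listed numbered 42, with 39 tested in the ventricles and 40 in the whole heart. In the left ventricle 14 fell and 4 rose (median log2 fold change -0.15), beside the 13.4% and 12.3% of all genes given above, in the right 8 fell and 2 rose (-0.03), beside 4.19% and 6.12%, and in the whole heart 5 fell (-0.03), beside 2.07%, and none rose by edgeR or DESeq2, with 2 and 3 higher at an unadjusted p under 0.05. The 4 and 2 of 39 that rose in the ventricles are shares below those of all genes. Those with the smallest p in the left ventricle were Crat, the carnitine acetyltransferase, which fell by 0.63 (SE 0.06), Acacb, the acetyl-CoA carboxylase of the mitochondrial surface that makes malonyl-CoA, by 0.67 (SE 0.07), Pdk3 and Pdk2, further kinases of pyruvate dehydrogenase, by 0.69 (SE 0.08) and 0.61 (SE 0.08), Plin2, a coat protein of lipid droplets, by 0.33 (SE 0.04), and Hsd17b10, a hydroxyacyl-CoA dehydrogenase, by 0.32 (SE 0.05). Crat was at 133, 136, 142 and 134 scaled CPM in left ventricle controls and 89.3, 91.8, 84.2 and 88.2 in the cKO, and Acacb at 122, 133, 126 and 129 and 82, 83.2, 81.1 and 75.3. Both were without overlap.

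Of the genes that rose in the left ventricle, Hsd17b4, Decr2 and Fabp5 were named after their values were seen. Hsd17b4, the peroxisomal bifunctional enzyme, was at 121, 110, 108 and 103 scaled CPM in controls and 139, 149, 149 and 130 in the cKO, with no overlap, and rose by 0.36 (SE 0.06, edgeR adjusted p = 0.000171). Decr2, the peroxisomal dienoyl-CoA reductase, rose by 0.15 (SE 0.05, adjusted p = 0.0454). Not every peroxisomal gene of the list rose there, as Crot, Acox3 and Ehhadh show, which were also named after their values were seen. Crot was called lower, at 34.46 to 36.25 scaled CPM in the cKO against 38.33 to 40.72 in controls. Acox3 and Ehhadh were not called. Fabp5, the epidermal form of the fatty acid-binding protein, rose by 0.32 (SE 0.06, adjusted p = 0.000996) in left ventricles and by 0.25 (SE 0.06, adjusted p = 0.0147) in the right. With Fabp3 lower and Fabp5 higher, the ratio of Fabp3 to Fabp5 in TPM was 1.612 to 1.996 in left ventricle controls and 0.883 to 1.005 in the cKO, and 1.343 to 1.498 and 0.998 to 1.06 in the right ventricle. These ranges did not overlap.

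Of 24 listed regulators of these and other mitochondrial genes, 11 fell and 1 rose in the left ventricle, 8 fell in the right and 4 in the whole heart. Of all genes, 13.4%, 4.19% and 2.07% were called lower in these tissues and 12.3%, 6.12% and 1.96% higher. No regulator rose in the right ventricle or the whole heart by edgeR, DESeq2 or limma, with 1 and 0 higher at an unadjusted p under 0.05 by edgeR. The whole heart count was 9 by DESeq2, 0 by limma, 7 without control 1, 2 without control 2 or 3 and 1 without any of cKO 1, 2 or 3, and the right ventricle count was 5 without control 1 or 3 or cKO 2. Ppargc1a, the PGC-1-alpha coactivator, was at 95.5, 111, 114 and 108 scaled CPM in left ventricle controls and 55.3, 60.2, 62.4 and 59.6 in the cKO. The right ventricle controls were at 107, 106, 120 and 119 and the cKO at 89.5, 96.9, 93.7 and 93.7. Both ventricles were without overlap, and it fell by 0.85 (SE 0.06, edgeR adjusted p = 2.88e-08) in the left and 0.27 (SE 0.06, adjusted p = 0.00487) in the right. It was the 1 regulator of the 24 whose effect differed between the ventricles (-0.58, SE 0.08, adjusted p = 0.00176).

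Ppara, the nuclear receptor PPAR-alpha, was at 3.56, 2.55, 3.62 and 3.51 scaled CPM in left ventricle controls and 1.26, 1.18, 1.54 and 1.26 in the cKO. It fell by 1.33 (SE 0.19, edgeR adjusted p = 6.76e-05) there and by 1.07 (SE 0.18, adjusted p = 0.001) in the right ventricle, from a low level. Perm1, a muscle regulator downstream of PGC-1, fell by 1.74 (SE 0.23), 1.27 (SE 0.20) and 1.55 (SE 0.17) in the left ventricle, right ventricle and whole heart. Ppargc1b fell by 0.72 (SE 0.09), 0.41 (SE 0.08) and 0.61 (SE 0.11) in the same tissues, and Sirt3, the mitochondrial deacetylase of acyl-CoA dehydrogenases, by 0.68 (SE 0.08), 0.31 (SE 0.08) and 0.36 (SE 0.07). Esrra, the estrogen-related receptor alpha, fell by 0.40 (SE 0.05) in the left ventricle and 0.16 (SE 0.05) in the right. Hif1a, named after its value was seen, was the regulator that rose in the left ventricle, by 0.25 (SE 0.07, adjusted p = 0.0169).

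**Figure D5:**
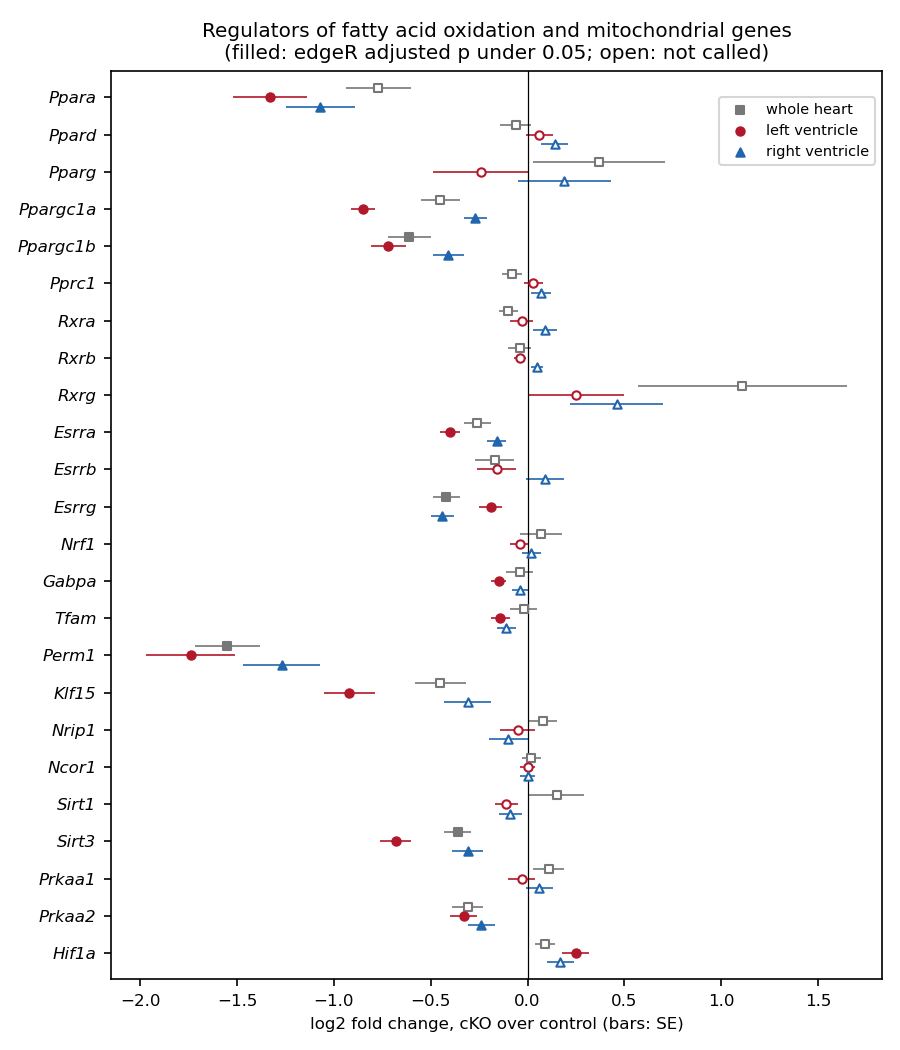
Log2 fold change of cKO over control (x axis, bars are the SE) for 24 listed regulators (y axis) in the whole heart (grey squares), left ventricle (red circles) and right ventricle (blue triangles), filled where the adjusted p is under 0.05. Perm1 has the lowest left ventricle value, -1.74, followed by Ppara at -1.33, and Ppargc1a is at -0.85 in the left ventricle and -0.27 in the right.

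Ketone bodies are an alternative fuel that enters the mitochondrion by its own enzymes. Of the 5 genes listed for them, 4 fell in the left ventricle, 2 in the right and 3 in the whole heart. These stand beside 13.4%, 4.19% and 2.07% of all genes called lower, and only falls are counted here. Bdh1, the hydroxybutyrate dehydrogenase, was at 12.4, 9.69, 11.1 and 9.83 scaled CPM in left ventricle controls and 3.39, 4.67, 3.58 and 3.12 in the cKO, with no overlap. It fell by 1.54 (SE 0.15, edgeR adjusted p = 1.60e-06) in left ventricles and 0.58 (SE 0.13, adjusted p = 0.0101) in the right, and the difference of -0.96 (SE 0.20) passed the test (adjusted p = 0.0264). Oxct1, the enzyme that activates acetoacetate, fell by 0.49 (SE 0.07) in the left ventricle and 0.23 (SE 0.04) in the whole heart. Slc16a1, a carrier of lactate and ketone bodies, fell in all 3 tissues, by 0.43 (SE 0.08) in the left ventricle.

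Markers of cell types moved with these genes. For the counts that follow, the shares of all genes called lower were 13.4% in the left ventricle, 4.19% in the right and 2.07% in the whole heart. The shares called higher were 12.3%, 6.12% and 1.96%. In the left ventricle 6 of 9 cardiomyocyte markers fell, with a median of -0.22 and a summed level of 18910 to 19130 TPM in the cKO against 19940 to 21410 in controls, and all 5 ventricular cardiomyocyte markers fell, among them Irx4 by 0.49 (SE 0.07) and Hey2 by 1.14 (SE 0.06). In the whole heart all 5 ventricular markers fell too (median -0.35), as did 2 of the 9 cardiomyocyte markers, Tnnt2 and Myl3, and the summed cardiomyocyte level was 15230 to 16290 TPM in the cKO against 16420 to 17940 in controls. Neither list had a call by edgeR in the right ventricle, where 16 of the 35 fatty acid genes fell. At an unadjusted p under 0.05 edgeR gave 3 of 9 and 2 of 5 lower, and DESeq2 called 2 of 9 and 0 of 5. The shares of all genes for these counts were not computed. There the cardiomyocyte sum was 22860 to 24670 TPM in the cKO and 21620 to 24370 in controls. Of 7 atrial markers 5 were higher in each of the 3 tissues, though not the same 5. Sln, Nppa and Myl7 were named after their values were seen. Sln was called in no tissue, was under 1 TPM on average in both ventricles and had a left ventricle log2 fold change of -0.64. Nppa and Myl7 were called in all 3 tissues, and were already at 2570 to 3425 and 287 to 391 scaled CPM in left ventricle controls. Of 5 epicardial markers 4 were higher in the left ventricle, and of 7 erythroid markers 4 were higher in the right. The part of these markers' cells in the results was not tested. With the libraries scaled to the sum of the 9 cardiomyocyte markers, a choice made after seeing the data, 24 members fell in the left ventricle, 15 in the right and 6 in the whole heart. Of all genes, 6.26%, 2.64% and 0.522% were then called lower and 22.4%, 5.59% and 4.74% higher. The members' medians were then -0.32, -0.16 and -0.13, and those of all genes 0.12, 0.02 and 0.16.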

How the data were processed

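RNA of 22 libraries was measured by bulk sequencing. Per the submitters' processing notes, the authors used Salmon 1.2.1, with DESeq2 1.22.2 and the builds GRCm38.p6 and mm10 also named. The deposited files give, for each transcript, an estimated count, its effective length and TPM, which the authors' Salmon run produced. The strand setting is not given in the sources used here. The members and lists were chosen with earlier results of these data known.

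Transcripts were assigned to genes by GENCODE M21 (140137 of 140658 matched), and estimated counts were summed per gene and rounded. The main test was edgeR 4.0.16's quasi-likelihood F test in R 4.3.3 with TMM scaling and its default low-count filter, on 6 whole-heart libraries alone and on 16 ventricle libraries in 1 model of 4 group means. P-values were adjusted by Benjamini-Hochberg over all genes within each of 6 comparisons, and called under 0.05. Shares of all genes called lower or higher are by edgeR at this threshold. They were not counted at an unadjusted p, or for DESeq2 or limma. Length-scaled counts are TPM turned back into counts at a mean gene length. Alternatives were DESeq2 1.42.0, limma 3.58.1 on log2(TPM + 1), other scalings and filters, a replicate block, a ventricle alone, and each library left out. The code was tested on simulated data. All 35 members are named; from each other list, at most 6 called genes with the smallest left ventricle p are named, and any others are said to be chosen after their values were seen. The result of 1 listed gene is not reported here. Markers were named from cell types that moved. The depth was 14508722 to 62004017 reads per library, and the size of counting error beside the spread between libraries was not tested.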

Additional observations from a re-analysis of the deposited data

Results flagged for a closer look

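The cKO effect differed between the left and right ventricle, by the test of the difference in edgeR, for 5 members. The left minus right difference of the log2 fold change was -0.37 for Fabp3, -0.35 for Cpt1b, -0.37 for Acads, -0.29 for Echs1 and -0.47 for Eci1.

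In 9 of the 140 groups of 4 libraries, 1 library lay far from the other 3 by Dixon's criterion (the gap to the nearest library over the range of the group), which chance gives in about 1 of 20 groups. Right ventricle control 2 was low for Cpt1b, at 227 scaled CPM against 281 to 289, and for Eci1, at 59.2 against 67.1 to 68. Left ventricle control 4 was low for Cpt2, at 50 against 53.6 to 54.1, and for Etfdh, at 144 against 156 to 157. Right ventricle control 3 was high for Eci2, at 72.2 against 62.1 to 63.3. Among cKO libraries, right ventricle 4 was low for Acsl4 (43 against 46.6 to 46.7), right ventricle 1 was low for Hadh (136 against 153 to 155), left ventricle 4 was low for Mlycd (15.5 against 16.9 to 17.1), and left ventricle 1 was high for Acat1 (167 against 164 in each of the others).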

How the results depend on the processing

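Of the single-member values under the alternatives, 4689 kept their direction and side of the threshold, 326 lost the call, 60 gained it and 0 reversed; the cause was not tested. In the whole heart, 773 genes were called, against 1727 by DESeq2, 82 by limma on TPM, 135 on length-scaled counts, 218 with the replicate block and 184 to 1292 without 1 library. The 15 members called lower there became 22 by DESeq2, 1 by limma, 3 on length-scaled counts, 6 with the block, 6 scaled to cardiomyocyte markers (chosen after seeing the data) and 5 to 18 without 1 library. In the left ventricle 4216 genes became 2637 by limma, 2683 on length-scaled counts and 3539 to 4860 without 1 library, and 28 members 22 by limma, 24 on length-scaled counts and 26 to 28 without 1 library. For the right ventricle 1696 genes became 721, 831, 1052 with that ventricle fitted alone, and 1290 to 2418, and 16 members became 9 fitted alone and 11 to 26 without 1 library. For the difference, 236 genes became 467 by DESeq2, 46 by limma, 64 on length-scaled counts, 152 with the block and 125 to 358 without 1 library, and 5 members became 8, 0 and 1 by the first 3, 4 with the block and 2 to 6 without 1 library. Left against right in controls, 3462 genes became 1387 by limma, 1691 on length-scaled counts and 2583 to 4482, and the 11 lower members 4 by library totals, 0 by limma, 2 on length-scaled counts and 2 to 18. In the cKO, 5398 genes became 3207 on length-scaled counts and 4489 to 6005, and 26 lower members 12 by limma and 24 to 27. Same-numbered libraries were not treated as pairs, since in no pair of groups did every correlation of their deviations exceed 0.1 (-0.116 to 0.237 over all). For the left and right cKO libraries each of the 4 matched its own number best (0.053 to 0.237), a hint of pairing from the data and not the design.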
